A study of Arabidopsis thaliana with 32 samples.

Results

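A set of 80 loci was listed higher in spaceflight roots than in ground roots of Arabidopsis thaliana in at least 3 of 4 separate comparisons and was listed lower in none of them. The 80 were chosen by these same flight-to-ground values, out of 4802 loci listed in any of the authors' 12 deposited tables and 2410 listed in a flight-to-ground table. Of 85 loci that met the rule, 5 were left out because they were among 13 loci the rule sets aside by name. The mirror rule, for loci lower in flight, gave 187 loci. Since flight and ground values chose the members, the flight-to-ground values below are a description and no test was made on them.

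The tables come from root RNA sequencing of 32 samples, 4 in each of 8 groups. Seedlings were wild-type Col-0 or Sku6, in which the sku6 allele affects SPIRAL1, a microtubule-associated protein gene, and roots skew. They grew on vertical plates of solid medium in Veggie hardware, either in orbit on the International Space Station or in a ground control, and were put into RNAlater at 4 or 8 days. The 8 groups were flight and ground Col-0 at 4 days, flight and ground Col-0 at 8 days, flight and ground Sku6 at 4 days, and flight and ground Sku6 at 8 days. All groups shared plate medium, light of 100 to 135 µmol m-2 s-1, fixative and library kit, and the ground set ran 48 h behind the flight set. A sample is a pool of 5 to 8 dissected roots of 4-day seedlings, or of 2 to 3 of 8-day seedlings. Spaceflight and any other difference between both runs cannot be told apart in this design. In whole-root RNA, a larger share of the cells that use a gene and more RNA of that gene per cell cannot be told apart either.

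The authors' deposited tables give 1 level per group in FPKM (sequenced fragments scaled to transcript length and to library size) and the log2 ratio of both groups, so a log2 value of 1 is a doubling. They list a locus only where the authors' q-value, a p-value adjusted over 19464 to 20035 loci tested per comparison, was at most 0.05. The spread between the samples of a group and the depth of each sample are unknown. A locus called not listed below may have had any smaller or noisier difference, in either direction.

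The members belong to several layers of regulation in the plant cell. AP2/ERF, WRKY, MYB and bZIP proteins are DNA-binding transcription factors of hormone, defence and energy responses. RING proteins and BTB adaptors choose the proteins that ubiquitin marks for breakdown, and glutaredoxins and thioredoxins set the redox state of cysteines in other proteins. In the cytokinin relay, histidine phosphotransfer proteins pass the signal from receptors to response regulators, and type-A response regulators damp it.

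Members were read against the share of all tested loci called higher in the same table. Listed higher in flight were 77 members in Col-0 at 4 days, where 3.10% of tested loci were called higher, and 33 in Col-0 at 8 days, where 1.26% were. In Sku6, 73 members were listed at 4 days and 74 at 8 days, where 2.18% and 1.08% of tested loci were called higher. Called lower in flight were 4.11%, 2.80%, 2.28% and 1.43% of tested loci in Col-0 at 4 and 8 days and Sku6 at 4 and 8 days. The rule used these 4 tables, so nothing is read from those counts. Of the 80, 17 were listed in all 4 tables and 63 in exactly 3. The table a member lacked was mostly that of 8-day Col-0, with 47 members not listed there, against 3 in 4-day Col-0, 7 in 4-day Sku6 and 6 in 8-day Sku6.

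**Figure D1:**
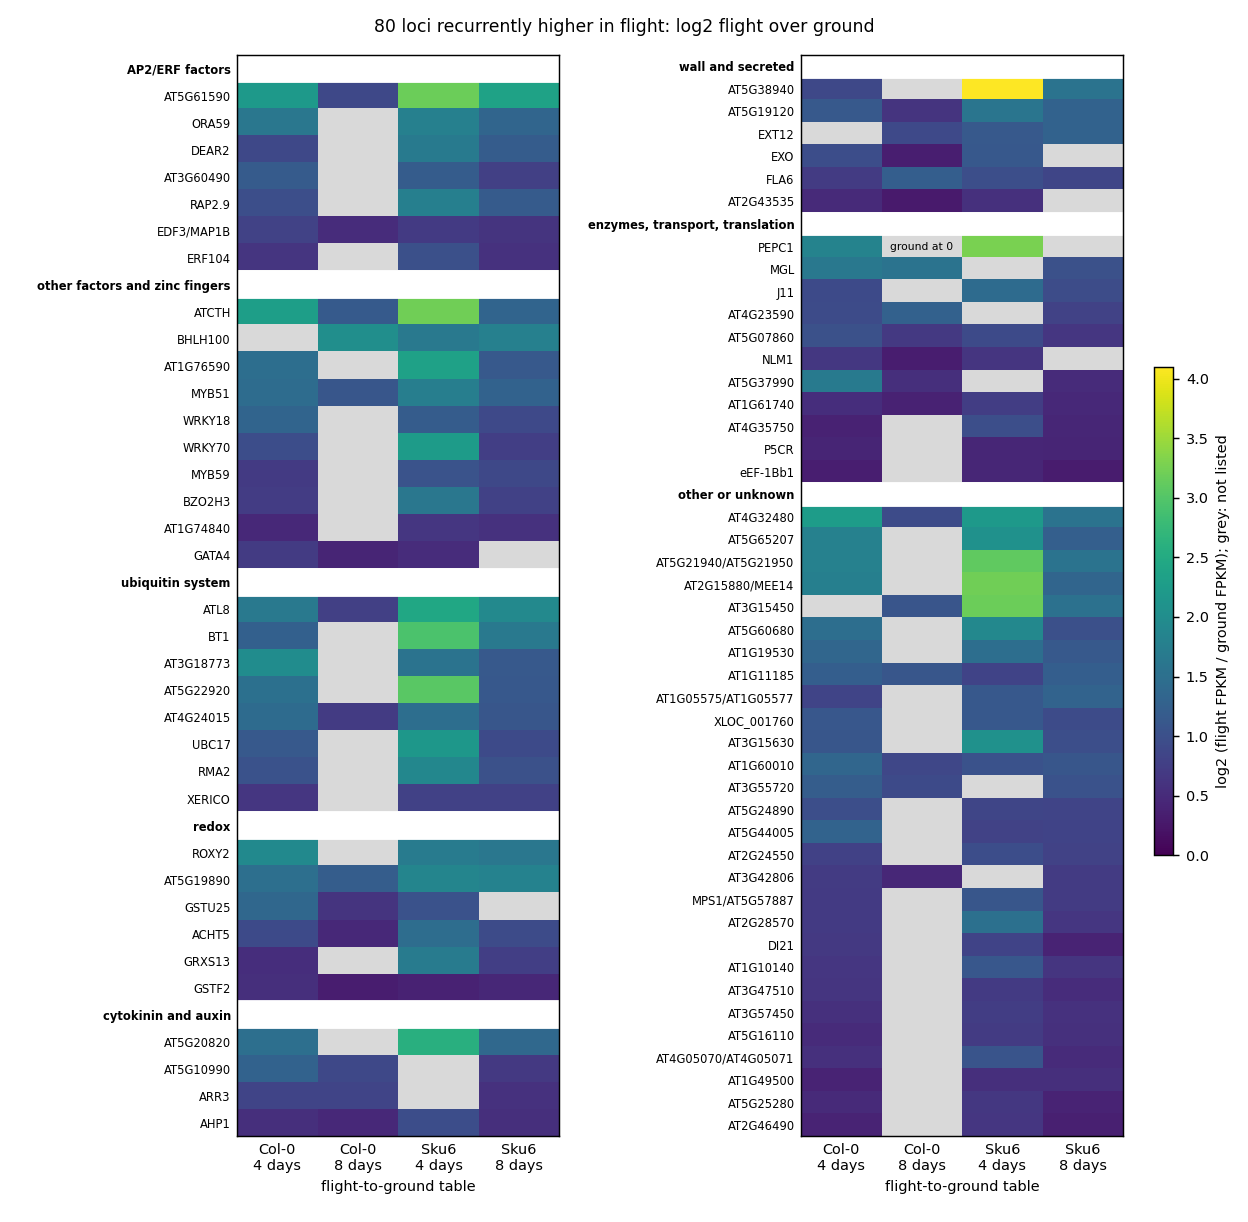
Heat map of the deposited log2 flight over ground of the 80 members (rows, by role) in the 4 flight-to-ground tables (columns), with colour from 0 to 4.1 and grey where a locus was not listed. PEPC1 has no ratio in Col-0 at 8 days because its ground level was listed at 0, and most grey cells lie in the column of 8-day Col-0.

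The size of the difference varied between tables. The median log2 of the listed members was 0.97 in Col-0 at 4 days, 0.81 in Col-0 at 8 days, 1.20 in Sku6 at 4 days and 0.91 in Sku6 at 8 days, by the authors' deposited tables. Over all loci called higher in the same tables the medians were 0.59, 0.58, 1.01 and 0.71. Of 70 members listed at 4 days in both genotypes, 56 had the larger ratio in Sku6, with medians of 1.16 in Sku6 and 0.97 in Col-0. At 8 days, 19 of 27 did. Of 67 members listed at both ages in Sku6, 59 had the larger ratio at 4 days, and of 29 in Col-0, 26 did. The matching shares of all loci listed in both tables were not counted, and the choice of members can favour some of these directions. Nothing is read from these counts. Whether the ratio of a member differs between genotypes or ages was not tested, since no values per sample were in hand.

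**Figure D2:**
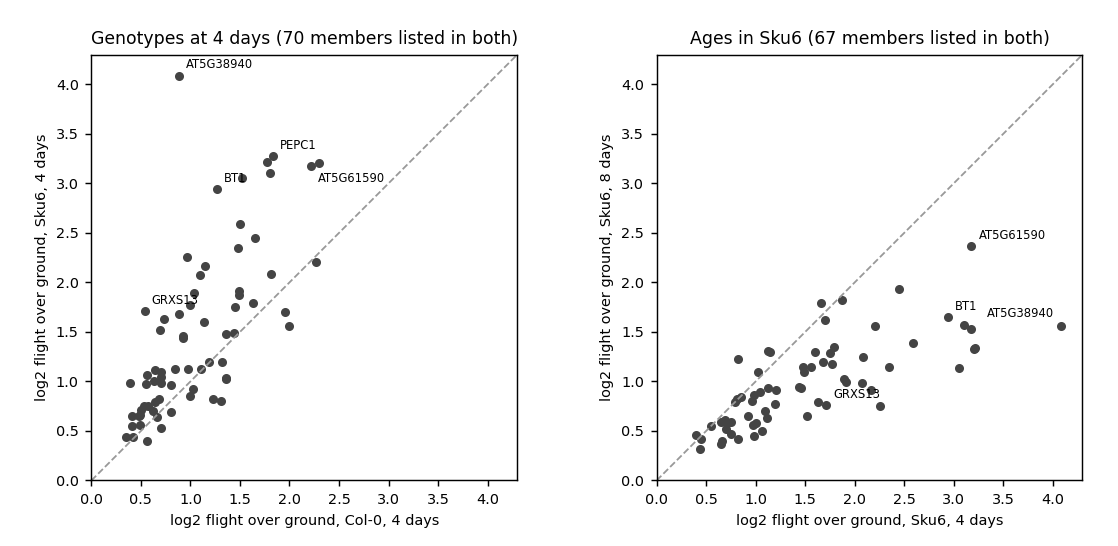
Deposited log2 flight over ground of each member (points) in Col-0 against Sku6 at 4 days (left, 70 members) and in Sku6 at 4 days against 8 days (right, 67 members), with a dashed line where both are equal. In the left panel 56 points lie above the line, and in the right panel 59 lie below it. The matching shares of all loci were not counted. Each point is a ratio of group values, with no spread between samples.

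Across the 257 member entries of the 4 tables, log2 values ran from 0.30 to 4.09, and 124 entries were at least 2-fold. A difference of at least 2-fold in every listing was seen in 19 members, and 24 stayed under 2-fold in every listing. Both counts take PEPC1, whose ground level in Col-0 at 8 days was listed at 0, as at least 2-fold in that table. Most members were well above the bottom of the FPKM scale, and 6 had a listed group under 2 FPKM. In 70 of the 80, the lowest listed flight level was above the highest listed ground level, which the choice of members favours.

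Promoter sequence was compared because the members, by the rule that chose them, are all higher in flight. The 300 bases before the annotated start, read from the TAIR10.1 genome of RefSeq, could be taken for 71 members that are 1 protein-coding gene, and the same window for 27443 nuclear protein-coding genes. The letters GATAAG, the I-box motif of many light-regulated promoters, were found on either strand in 29.6% of the members' windows (21 of 71), in 14.5% of all windows and in 15.8% of the windows of 2150 other loci in the flight-to-ground tables. GNATATNC, the palindrome bound by the phosphate-starvation factor PHR1, was in 19.7% of members (14 of 71), 6.50% of all windows and 6.65% of the other flight-table loci. The sugar-responsive letters TATCCA were in 23.9% of members against 16.2% of all windows, and both ACGTGG (16.9% against 9.13%) and ACGTGT (18.3% against 11.8%), letters of abscisic acid response elements, were also more frequent in members. For CACGTG, the G-box, which overlaps those ACGTG letters, the shares were 9.86% and 7.09%, and for AAATATCT, the evening element core, 9.86% and 5.64%. The ERF-bound GCCGCC was in 4.23% against 2.26%. The W-box letters bound by WRKY factors were no more frequent in members, with TTGACC in 11.3% against 14.01% and TTGACT in 19.7% against 21.9%. A match is a description of letters and not a bound site, and no test was run on these shares.

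Both GATAAG and TATCCA occurred as 1 overlapping run, TGGATAAG or its reverse complement, in 5 of the 71 members (7.04%), in 1.29% of all windows and in 1.67% of the other flight-table loci. This joined motif was picked after the motif positions were seen. The 5 runs are shown in capitals in 30 bases each, 5′ to 3′ on the strand of the gene, to let their flanks be compared.
AT1G10140 (chr1:3323943-3323972, minus strand): gtcttttatgaCTTATCCAatgttaggtat
AT2G24550 (chr2:10429517-10429546, minus strand): caaaatataaaTGGATAAGgttgagatatg
WRKY70 (chr3:20910635-20910664, minus strand): aaagaaatgggTGGATAAGttcaagttcca
AT4G35750 (chr4:16942079-16942108, minus strand): ataacgcccatCTTATCCAataatctacat
ACHT5 (chr5:24707246-24707275, plus strand): gttttatttagTGGATAAGtttgataatca
The flanks differ between the 5 genes, and the stretches lie between bases −237 and −12 before the start, counted back from the first transcribed base. The window of AT4G35750 reaches into a neighbouring annotated gene. WRKY70 is a transcription factor of salicylate defence, ACHT5 an atypical thioredoxin, AT4G35750 a SEC14-type lipid transfer protein, and the functions of AT1G10140 and AT2G24550 are not established.

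The PHR1 palindrome of 4 further members is shown in capitals in the same way. They are AHP1, a phosphotransfer protein of the cytokinin relay, AT4G32480 with a DUF506 domain, the glutaredoxin gene ROXY2 and the ethylene response factor gene ERF104. AHP1 and AT4G32480 were shown as members listed in all 4 tables, and ROXY2 and ERF104 were picked by hand. The window of PEPC1, the only member in the phosphate starvation list used below, held no such palindrome.
AHP1 (chr3:7579928-7579957, minus strand): tgtgcatattaGTATATGCttttcatcagt
AT4G32480 (chr4:15676124-15676153, plus strand): aaaagcatcgaGTATATCCgaatctgtggt
ROXY2 (chr5:4541719-4541748, plus strand): gttatcatttgGCATATCCtctctaataat
ERF104 (chr5:24767811-24767840, minus strand): tgtgtttgattGAATATTCcaagtcctttg
The middle letters ATAT are shared and the letters outside the palindrome differ. Whole windows are shown for the thioredoxin gene ACHT5, which holds TATCCA letters 4 times, for the aspartyl protease gene AT5G19120 and for the BTB-TAZ gene BT1, with those letters, GATAAG and the palindrome in capitals on either strand.
ACHT5 (chr5:24707145-24707444, plus strand): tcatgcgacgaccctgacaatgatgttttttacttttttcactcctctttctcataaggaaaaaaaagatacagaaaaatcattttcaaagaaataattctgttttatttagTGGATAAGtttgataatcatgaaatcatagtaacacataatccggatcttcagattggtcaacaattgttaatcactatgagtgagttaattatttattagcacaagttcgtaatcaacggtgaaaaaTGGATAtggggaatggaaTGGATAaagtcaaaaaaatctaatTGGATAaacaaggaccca
AT5G19120 (chr5:6414188-6414487, plus strand): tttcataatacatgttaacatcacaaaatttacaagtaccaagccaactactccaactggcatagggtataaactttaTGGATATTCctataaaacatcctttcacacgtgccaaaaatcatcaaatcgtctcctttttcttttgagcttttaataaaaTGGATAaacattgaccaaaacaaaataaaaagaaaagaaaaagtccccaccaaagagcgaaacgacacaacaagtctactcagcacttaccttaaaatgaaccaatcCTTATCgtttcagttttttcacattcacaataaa
BT1 (chr5:25335571-25335870, minus strand): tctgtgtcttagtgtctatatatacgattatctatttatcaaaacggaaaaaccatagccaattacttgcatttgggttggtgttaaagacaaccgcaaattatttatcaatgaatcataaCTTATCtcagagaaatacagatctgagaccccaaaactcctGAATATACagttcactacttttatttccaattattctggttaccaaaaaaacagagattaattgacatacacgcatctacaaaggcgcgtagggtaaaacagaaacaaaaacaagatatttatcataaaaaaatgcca
In AT5G19120, the palindrome and TATCCA share letters, the only such overlap among the 71 members. In the 500 bases before the start, GATAAG was in 36.6% of members against 22.5% of all windows, and GNATATNC in 23.9% against 10.7%. Leaving out windows that touch another annotated gene gave 28.99% against 14.1% and 20.3% against 6.70%. In 500 bases, TATCCA was in 29.6% of members against 25.5% of all windows. For ACGTGG those shares were 19.7% and 12.6%, and for ACGTGT 26.8% and 16.6%.

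Gene structure was also compared, as a measure the rule did not use. Of the 71 members, 26 (36.6%) had a single exon, against 20.98% of 2145 other loci of the flight-to-ground tables and 20.5% of 27444 nuclear protein-coding genes. Their median transcript length was 1311 bases, against 1485 and 1516.5 bases. The members lie on all chromosomes, with 19 on chromosome 1, 9 on chromosome 2, 12 on chromosome 3, 15 on chromosome 4 and 25 on chromosome 5. Only AT5G61590 and ERF104 lay within 20 kb of each other, both ERF genes on the minus strand of chromosome 5, with 832 bases and no annotated protein-coding gene between them.

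In what follows, 4 values of a gene stand in the order Col-0 at 4 days, Col-0 at 8 days, Sku6 at 4 days and Sku6 at 8 days, and 3 values follow the same order without the table named as lacking the gene. All levels are FPKM of the group and all ratios are log2 flight over ground, both from the authors' deposited tables, and so are the age and genotype values further below. Of the annotated members, 12 overlap another annotated gene, 9 of them on the opposite strand, among them GSTF2, MGL, ACHT5, AT4G24015, AT3G18773 and AT3G15630. The files do not say whether strand was used, so reads of such pairs may not have been told apart. Among AP2/ERF transcription factor genes, 7 were members and 2 of them were in all 4 tables. AT5G61590 (chromosome 5, locus 24761079 to 24765437), an ethylene response factor gene, had the highest median ratio of the members in all 4 tables. Its levels were 24.4, 25.7, 19.6 and 15.8 FPKM on the ground and 113, 47.7, 178 and 81.6 FPKM in flight, and its ratios 2.21, 0.89, 3.18 and 2.37. Flight levels were thus above every ground level, and the lowest flight level was that of 8-day Col-0. EDF3, an AP2/B3 factor of the ethylene response, is listed as 1 locus with the methionine aminopeptidase gene MAP1B, so the reads of both cannot be told apart. That locus was at 13.6, 14.9, 15.2 and 13.9 FPKM on the ground and 23.7, 21.3, 24.6 and 21.3 FPKM in flight, a narrow shift in each comparison with ratios of 0.80, 0.52, 0.69 and 0.61.

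ORA59, an ERF gene that joins jasmonate and ethylene signals in defence, was listed in Col-0 at 4 days and Sku6 at 4 and 8 days at 3.20, 4.83 and 6.19 FPKM on the ground and 9.92, 16.7 and 15.7 FPKM in flight. The other AP2/ERF members were listed in the same 3 tables. DEAR2, a DREB-type repressor gene, had ratios of 0.89, 1.68 and 1.19, RAP2.9 of 0.99, 1.77 and 1.17, AT3G60490 of 1.18, 1.20 and 0.77 and ERF104, an ERF gene of immune signalling downstream of a MAP kinase, of 0.63, 1.00 and 0.58. Of 84 genes whose annotation is the same as that of AT5G61590 and AT3G60490, 12 were listed in a flight-to-ground table. The 10 that are no members were listed 1 higher and 4 lower in Col-0 at 4 days, 1 higher and 4 lower in Col-0 at 8 days, 2 higher and 3 lower in Sku6 at 4 days, and 0 higher and 3 lower in Sku6 at 8 days.

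Another 10 members were transcription factors of other families or zinc finger regulators, with 2 of them in all 4 tables. ATCTH, a tandem CCCH zinc finger gene, was at 3.93, 5.89, 2.11 and 5.71 FPKM on the ground and 19.4, 13.2, 19.5 and 14.3 FPKM in flight. Its ground level in 4-day Sku6 was the lowest of the 4 and its flight level there was among the highest, giving a ratio of 3.21 beside 2.30, 1.17 and 1.33 in the other 3 comparisons. MYB51, a regulator of indolic glucosinolate synthesis, was a low-level gene at 1.83, 2.68, 2.44 and 2.18 FPKM on the ground and 4.99, 5.73, 8.22 and 5.34 FPKM in flight. All 4 of its ratios passed 1, at 1.45, 1.10, 1.75 and 1.29. BHLH100, a factor of the iron deficiency response, was not listed in 4-day Col-0 and was at 0.698, 3.36 and 1.46 FPKM on the ground and 2.86, 10.6 and 5.06 FPKM in flight in Col-0 at 8 days and Sku6 at 4 and 8 days. Its ground level of 0.698 FPKM makes the 8-day Col-0 ratio of 2.03 sensitive to small changes in that level, and with 1 FPKM added to both groups it was 1.18. BZO2H3 (bZIP63), a bZIP factor of the low-energy response, was listed in Col-0 at 4 days and Sku6 at 4 and 8 days at 13.2, 10.3 and 13.2 FPKM on the ground and 22.02, 31.7 and 22.8 FPKM in flight. Flight levels of BZO2H3 lay above its ground levels in these 3 tables.

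The 2 WRKY members are known from salicylate defence. WRKY70 had ratios of 0.96, 2.25 and 0.75 and WRKY18 of 1.32, 1.20 and 0.91, in Col-0 at 4 days and Sku6 at 4 and 8 days. The remaining factors were the PLATZ zinc finger gene AT1G76590 at ratios of 1.48, 2.35 and 1.15, MYB59 at 0.70, 1.04 and 0.90 and the MYB-related gene AT1G74840 at 0.48, 0.65 and 0.59, all in the same 3 tables. GATA4 was not listed in 8-day Sku6 and had ratios of 0.70, 0.42 and 0.53.

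In the ubiquitin system, all 8 members had listed flight levels above all their listed ground levels, as did 70 of all 80 members. The choice of members favours this, and groups not listed are left out of it. At least 2-fold higher wherever listed were 4 of the 8, beside 19 of the 80. ATL8, a membrane RING gene, was at 7.11, 7.22, 4.34 and 3.90 FPKM on the ground and 22.3, 12.4, 23.7 and 14.9 FPKM in flight. The ground levels of ATL8 were lower in Sku6 than in Col-0, a difference that no genotype table listed, and its ratios were 1.65, 0.78, 2.45 and 1.94. AT4G24015, another RING gene, was at 19.97, 42.6, 16.9 and 33.5 FPKM on the ground and 54.1, 69.8, 47.4 and 71.6 FPKM in flight, with ratios of 1.44, 0.71, 1.49 and 1.09. Its levels were higher at 8 than at 4 days in each pair of groups, and of these only the ground Col-0 pair was called in an age table. BT1, a BTB-TAZ adaptor gene, was listed in Col-0 at 4 days and Sku6 at 4 and 8 days at 12.3, 9.38 and 11.8 FPKM on the ground and 29.6, 71.9 and 37.2 FPKM in flight. Its highest level was in flight Sku6 at 4 days, and its ratios were 1.26, 2.94 and 1.65.

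AT5G22920, a CHY and RING zinc finger gene, was listed in the same 3 tables at 21.05, 13.4 and 18.05 FPKM on the ground and 60.4, 111 and 39.5 FPKM in flight. RMA2, a RING gene of the endoplasmic reticulum membrane, was there at 25.9, 25.3 and 13.2 FPKM on the ground and 53, 94.1 and 26.9 FPKM in flight. In both genes the highest level was in flight Sku6 at 4 days. UBC17, a ubiquitin-conjugating enzyme gene, had ratios of 1.14, 2.16 and 0.92, AT3G18773 of 2.00, 1.56 and 1.14 and XERICO, a RING gene of abscisic acid metabolism, of 0.65, 0.79 and 0.80 in those tables. Of 293 genes annotated only as RING/U-box proteins, 4 were members, and the other 17 listed in a flight-to-ground table went both ways, with 4 higher and 6 lower in Col-0 at 4 days, 1 and 5 in Col-0 at 8 days, 6 and 5 in Sku6 at 4 days, and 1 and 3 in Sku6 at 8 days.

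Redox genes gave 6 members, 3 of them in all 4 tables. The peroxidase gene AT5G19890 was at 3.91, 5.95, 5.07 and 8.53 FPKM on the ground and 11, 13.8, 18.5 and 30.2 FPKM in flight. It was at least 2-fold higher in each comparison, with ratios of 1.49, 1.22, 1.87 and 1.82, and its flight level was highest in 8-day Sku6. ACHT5, whose promoter is shown above, was at 28.3, 35.1, 21.9 and 25.4 FPKM on the ground and 53.7, 48.4, 60.3 and 48.6 FPKM in flight with ratios of 0.93, 0.46, 1.46 and 0.94. GSTF2, a phi-class glutathione transferase gene, was an abundant and slightly shifted member at 155, 232, 250.2 and 329 FPKM on the ground and 228, 292, 329 and 451 FPKM in flight. GSTF2 has a close tandem copy, GSTF3, between which short reads can be split. Its ground and flight levels overlapped between comparisons, the only case among the 17 members in all 4 tables, since the ground level of 8-day Sku6 was above both Col-0 flight levels.

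Both glutaredoxin members are of the plant-specific CC type. GRXS13 was listed in Col-0 at 4 days and Sku6 at 4 and 8 days at 226, 248 and 147 FPKM on the ground and 328, 809 and 249 FPKM in flight, with a flight level in 4-day Sku6 above every other level of the gene. ROXY2, a low-level gene, was at 6.15, 6.35 and 5.62 FPKM on the ground and 23.7, 20.7 and 17.3 FPKM in flight in the same tables, and its ratios of 1.95, 1.70 and 1.62 were close to each other. The tau-class glutathione transferase gene GSTU25 was not listed in 8-day Sku6 and had ratios of 1.36, 0.62 and 1.03.

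**Figure D3:**
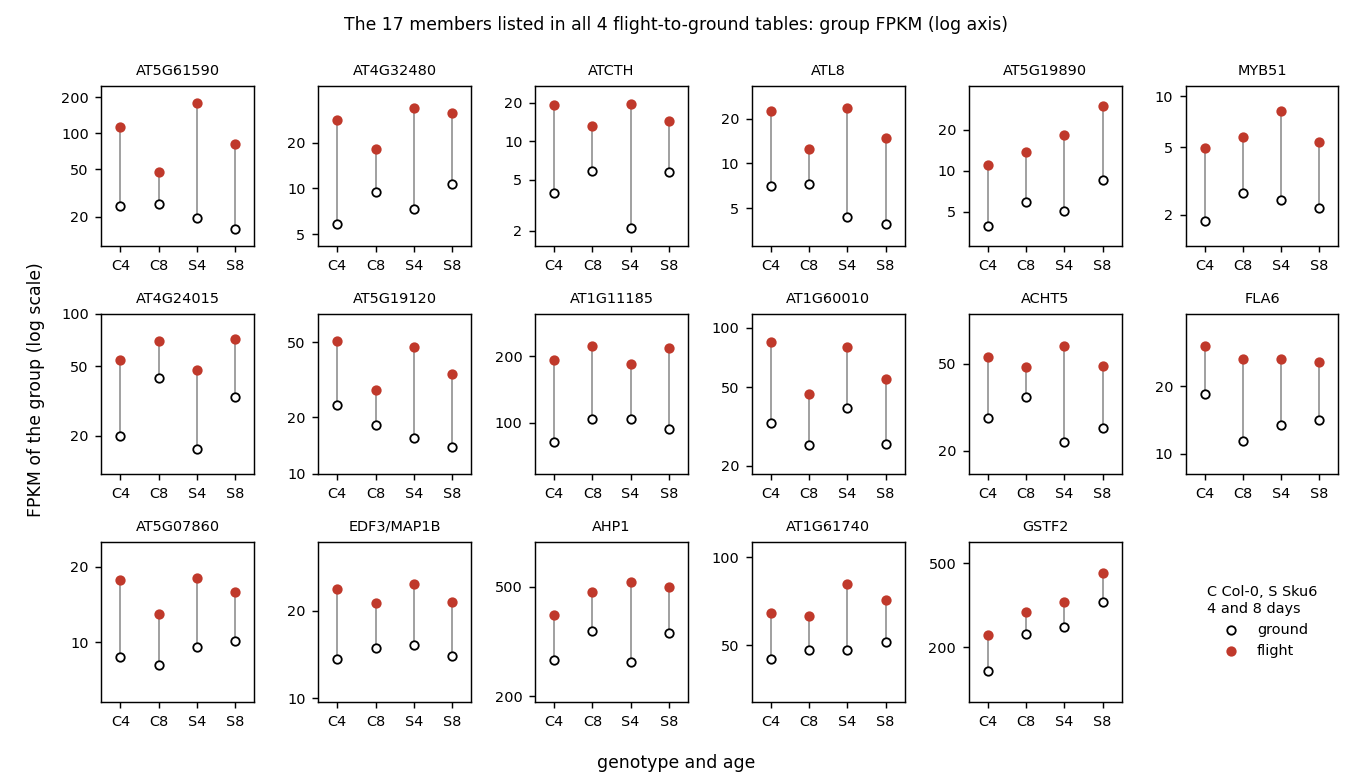
Group levels in FPKM (log axis, a range of its own in each panel) of the 17 members listed in all 4 flight-to-ground tables, with ground as open and flight as filled points for Col-0 (C) and Sku6 (S) at 4 and 8 days. Each point is 1 deposited group value with no spread between samples. In 16 of 17 panels every filled point lies above every open point, and GSTF2 is the exception.

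Cytokinin and auxin response gave 4 members. AHP1 was at 270.1, 346, 266 and 340.2 FPKM on the ground and 395, 480.0, 523 and 500.2 FPKM in flight, with ratios of 0.55, 0.47, 0.97 and 0.56, so that its largest ratio was in 4-day Sku6. ARR3, a type-A response regulator gene of the same relay, was not listed in 4-day Sku6 and had ratios of 0.84, 0.84 and 0.59. Of the 78 genes annotated as SAUR-like auxin-responsive proteins, 2 were members. AT5G20820 was listed in Col-0 at 4 days and Sku6 at 4 and 8 days at 15.3, 12.9 and 13.7 FPKM on the ground and 43.4, 77.7 and 35.9 FPKM in flight, and AT5G10990 in Col-0 at 4 and 8 days and Sku6 at 8 days with ratios of 1.29, 0.89 and 0.67. The other 2 SAUR-like genes in a flight-to-ground table were not listed higher in any of them and were listed lower once in Col-0 at 8 days and once in Sku6 at 4 days.

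The wall and secreted protein genes were 6. AT5G19120, an aspartyl protease gene, was at 23.1, 18.2, 15.6 and 13.9 FPKM on the ground and 50.9, 27.9, 47.1 and 34.1 FPKM in flight with ratios of 1.14, 0.62, 1.60 and 1.29. FLA6, a fasciclin-like arabinogalactan protein gene, was at 18.5, 11.4, 13.4 and 14.2 FPKM on the ground and 30.2, 26.5, 26.6 and 25.8 FPKM in flight, and its ratio was largest in 8-day Col-0. AT5G38940, a germin-like cupin gene, held the highest ratio of any member, 4.09 in 4-day Sku6, and lies among similar tandem copies that can share reads. It was listed in Col-0 at 4 days and Sku6 at 4 and 8 days at 25.4, 1.85 and 5.76 FPKM on the ground and 46.8, 31.4 and 16.95 FPKM in flight, and that ratio goes with a ground level of 1.85 FPKM in Sku6 beside 25.4 in Col-0. EXT12, an extensin gene of the cell wall, was not listed in 4-day Col-0 and was otherwise at 72.2, 39.1 and 57.6 FPKM on the ground and 135, 86.5 and 141 FPKM in flight. EXO, a gene of brassinosteroid-promoted growth, was not listed in 8-day Sku6 and was otherwise at 23.7, 39.97 and 20.6 FPKM on the ground and 46.5, 50.98 and 45.1 FPKM in flight. AT2G43535, a small secreted defensin-like gene, was among the abundant members and had the smallest ratio of all, 0.30 in 8-day Col-0.

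Enzyme, transport and translation genes numbered 11. AT5G07860, an acyltransferase gene, was at 8.74, 8.07, 9.53 and 10.11 FPKM on the ground and 17.7, 12.9, 18.04 and 15.9 FPKM in flight, and AT1G61740, of the TauE/SafE exporter family, at 44.7, 48.01, 48.02 and 51.5 FPKM on the ground and 64.6, 63.01, 80.8 and 71.4 FPKM in flight. PEPC1, a phosphocholine and phosphoethanolamine phosphatase gene induced by phosphate starvation, was listed in Col-0 at 4 and 8 days and Sku6 at 4 days at 2.86, 0 and 1.10 FPKM on the ground and 10.2, 2.12 and 10.7 FPKM in flight, so no ratio exists for 8-day Col-0. The other PEPC1 ratios were 1.83 and 3.27, and with 1 FPKM added to both groups the latter was 2.47. MGL, which breaks down methionine, had ratios of 1.65, 1.56 and 1.01 in Col-0 at 4 and 8 days and Sku6 at 8 days. The smallest median ratios of this group were in abundant genes, though 1 of them, AT4G35750, reached 0.98 in 4-day Sku6. Only loci that passed the q-value limit are listed, which favours abundant genes among small ratios. P5CR, the last enzyme of proline synthesis, was at 218, 213 and 199 FPKM on the ground and 292, 289.5 and 266 FPKM in flight, the translation elongation factor gene eEF-1Bb1 at 610.4, 645 and 591 FPKM on the ground and 779, 872 and 734 FPKM in flight and AT4G35750 at 156, 145 and 171 FPKM on the ground and 204, 286 and 232 FPKM in flight, in Col-0 at 4 days and Sku6 at 4 and 8 days. The other 4 of this group were NLM1, an aquaporin gene, J11, a DnaJ chaperone gene, the aminotransferase gene AT4G23590 and the methyltransferase gene AT5G37990, and their ratios ran from 0.33 to 1.68.

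The remaining 28 members have other or unknown functions, and 3 of them were in all 4 tables. AT4G32480 was at 5.84, 9.53, 7.32 and 10.7 FPKM on the ground and 28.1, 18.3, 33.8 and 31.4 FPKM in flight. The noncoding RNA gene AT1G11185 was at 81.8, 104, 104 and 93.4 FPKM on the ground and 192, 222, 184 and 218 FPKM in flight, with ratios of 1.23, 1.10, 0.82 and 1.22 that were smallest in 4-day Sku6. AT1G60010 was at 32.8, 25.3, 39.3 and 25.8 FPKM on the ground and 84.1, 46.2, 80.02 and 55.3 FPKM in flight. In Col-0 at 4 days and Sku6 at 4 and 8 days, AT5G65207 of unknown function was at 109.7, 120.5 and 117 FPKM on the ground and 384, 509 and 276 FPKM in flight. The merged loci of AT5G21940 with AT5G21950 and of AT2G15880 with MEE14 were at 33.4, 15.8 and 24.6 FPKM on the ground and 117, 136 and 72.9 FPKM in flight and at 14.4, 7.89 and 11.6 FPKM on the ground and 49.4, 73.2 and 29.3 FPKM in flight there, and the reads of the genes in a merged locus cannot be told apart. DI21, a drought-induced gene, reached the highest flight level of any member, at 418, 556 and 628 FPKM on the ground and 670.4, 980.0 and 837 FPKM in flight in those tables. AT1G19530, a gene known from low-oxygen responses, was at 7.58, 5.50 and 15.99 FPKM on the ground and 19.4, 15.4 and 35.4 FPKM in flight, and AT3G15630 at 60.4, 46.7 and 51.9 FPKM on the ground and 129, 196 and 103 FPKM in flight. AT2G46490 and AT3G47510, both of unknown function, had ratios of 0.41, 0.65 and 0.36 and 0.63, 0.70 and 0.52. A locus without a gene identifier (chromosome 1, 11471828 to 11474758), which overlaps the lncRNA genes AT1G06473 and AT1G06483, had ratios of 1.11, 1.12 and 0.94 at levels under 5 FPKM. The pseudogene AT3G42806 was not listed in 4-day Sku6 and had ratios of 0.72, 0.46 and 0.71.

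Values at the edge of the rule were as follows, given without a test. Among 10 loci listed in 3 or 4 tables but lower in 1, the microRNA locus MIR160b had ratios of 2.49, 1.82, 1.73 and −2.74 in the authors' deposited tables, and the haemoglobin gene HB1 was higher in flight in Sku6 (0.85 and 0.84) and lower in Col-0 at 8 days (−0.51). AT1G78460 had −0.48 in 8-day Col-0 against 1.30 and 1.01 in Sku6. AT5G38020 was lower only in 8-day Sku6 (−0.55) and AT5G01870, a lipid transfer protein gene, only in 8-day Col-0 (−0.25). Another 171 loci were listed in exactly 2 tables and higher in both, led by a merged microRNA locus of MIR157a with PMI2 (1.84 and 3.70 in Sku6), the glycine-rich protein gene AT2G05510 (4.01 and 1.37 in Sku6) and the RING gene AT2G34000 (2.30 in 4-day Col-0 and 2.58 in 4-day Sku6). Just inside the rule, PEPC1 had a q-value of 0.0493 in 8-day Col-0 in the authors' deposited table.

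The authors' age tables, 8 days against 4 days, share their samples with the flight-to-ground tables, so they are given beside those values and not as support for them. Of the members, 70 were listed in both 4-day tables and 27 in both 8-day tables. The choice of members thus favours a fall with age in flight and a rise with age on the ground. In flight, a larger share of members than of all tested loci was lower at 8 days. Lower at 8 days were 34 members in Col-0 (42.5%, where 3.45% of tested loci were called lower) and 38 in Sku6 (47.5%, where 4.43% were). Higher at 8 days in flight were 3 members in Col-0 and 7 in Sku6, where 3.33% and 3.92% of tested loci were called higher. On the ground, 21 members were higher at 8 days in Col-0 and 13 in Sku6, where 5.69% and 4.77% of tested loci were called higher. Lower at 8 days on the ground were 7 in Col-0 and 6 in Sku6, where 5.54% and 4.67% were called lower. The median log2 of 8 over 4 days among listed members was −0.80 and −0.64 in flight Col-0 and Sku6 and 0.57 and 0.75 on the ground. Over all loci called in the same tables the medians were −0.29 and −0.37 in flight and 0.30 and 0.36 on the ground. The signs are thus those of the tables as a whole.

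Of the 47 members lower at 8 days in a flight table, 29 (61.7%) were in neither ground age table, where 42.3% of the 1169 loci lower in a flight table were. Another 10 of the 47 (21.3%) were higher at 8 days in a ground age table, against 3.51% of the 1169, and 25 (53.2%) were lower in both flight tables, against 33.8%. The choice of members favours these directions, so nothing is read from these shares. AT5G61590 went from 117 to 46.5 FPKM in flight Col-0 and from 183 to 79.04 in flight Sku6 and was in neither ground age table, by the authors' deposited tables. The merged AT2G15880 and MEE14 locus went from 51.2 to 20.9 FPKM and from 75.4 to 28.3, and AT5G65207 from 398 to 147 and from 524 to 267, with neither in a ground age table. BT1 was 30.6 FPKM at 4 days and 21.2 at 8 days in flight Col-0 but 12.6 and 17.7 in ground Col-0. ATCTH was lower at 8 days in flight Sku6 (20.1 to 13.9 FPKM) and higher at 8 days in ground Sku6 (2.18 to 5.55).

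Only GRXS13, AT1G60010 and RMA2 were in all 4 age tables, and each was lower at 8 days in all of them. The matching share of all loci was not counted. GRXS13 went from 339.99 to 147 FPKM in flight Col-0 and from 833 to 241 in flight Sku6. On the ground it went from 231 to 168 in Col-0 and from 255 to 143 in Sku6. In 8-day Col-0, where GRXS13 was not listed between flight and ground, its flight level of 147 FPKM was thus below its ground level of 168. RMA2 had log2 values of −1.34 and −1.90 in flight against −0.62 and −1.02 on the ground, and AT1G60010 of −0.95 and −0.62 against −0.45 and −0.69, Col-0 first. Higher at 8 days on the ground and in no flight age table were ROXY2, from 6.27 to 15.3 FPKM in ground Col-0, and ORA59, from 3.27 to 10.7. EXO was higher at 8 days on the ground in both genotypes, with log2 values of 0.67 and 0.75, and in neither flight age table. PEPC1 was at 10.96 FPKM at 4 days and 1.05 at 8 days in flight Sku6, and in ground Col-0 it was at 2.92 at 4 days and listed at 0 at 8 days.

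**Figure D4:**
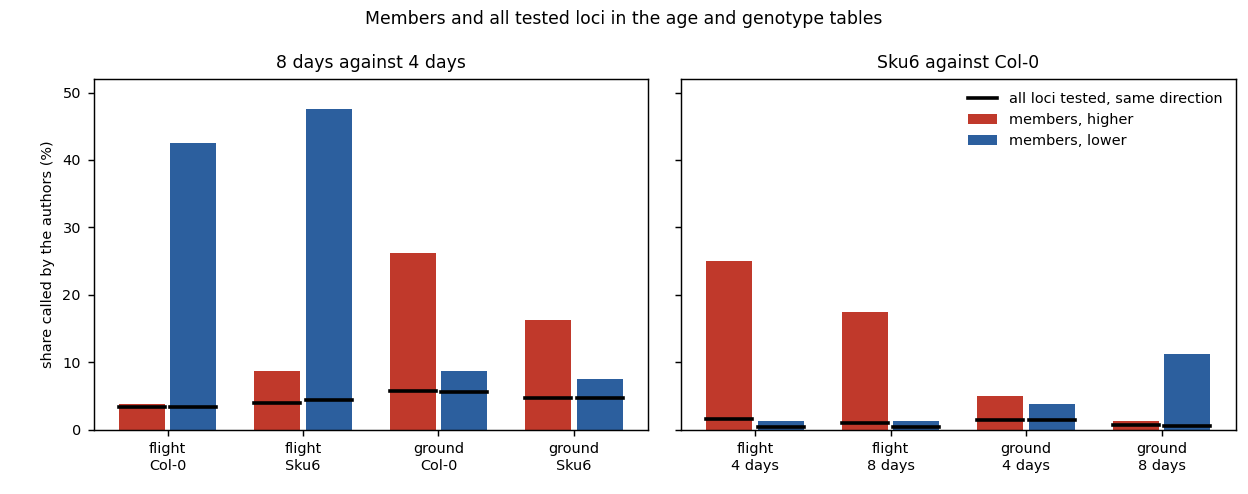
Share of the 80 members (bars, %) called higher or lower by the authors at 8 against 4 days (left) and in Sku6 against Col-0 (right), with the share of all tested loci called in the same direction as black lines. Lower at 8 days were 42.5% and 47.5% of members in the flight tables, and higher in Sku6 were 25% and 17.5% in the flight tables. The tables share samples with those that chose the members, and the choice favours some of these directions.

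The authors' genotype tables, Sku6 against Col-0, share samples with the same tables. The 47 members not listed in 8-day Col-0 also had to be higher in flight in both Sku6 tables. The choice of members thus favours high flight and low ground levels in Sku6, and nothing is read from the shares here and below. Higher in Sku6 in flight were 20 members at 4 days (25%, where 1.55% of tested loci were called higher) and 14 at 8 days (17.5%, where 1.03% were). Lower in Sku6 in flight was 1 member at each age, where 0.473% and 0.371% of tested loci were called lower. On the ground, 4 members were higher and 3 lower at 4 days, where 1.45% and 1.48% of tested loci were called so. At 8 days on the ground, 1 was higher and 9 were lower, where 0.729% and 0.608% were called so.

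The highest log2 of a member in the flight genotype tables was 1.36, for BHLH100 at 4 days (10.7 FPKM in Sku6 against 4.16 in Col-0, by the authors' deposited table). GRXS13 was at 815 against 327 FPKM at 4 days and 251 against 150.3 at 8 days in flight. BT1 was at 72.4 against 29.5 and 37.5 against 21.7 in flight, but on the ground at 8 days it was lower in Sku6, at 11.8 against 18.2. Of the 24 members higher in Sku6 in a flight table, 4 (16.7%) were lower in Sku6 on the ground at 8 days, against 7.71% of all 428 loci higher in Sku6 in a flight table. They were BT1, ORA59, AT2G46490 and AT2G28570, the last of unknown function and named after its values were seen. Higher in Sku6 in both flight tables were 10 of the 24 (41.7%), against 18.5% of the 428 loci, a direction the choice favours. These were GRXS13, BT1, GSTF2, AT5G61590 (log2 of 0.66 and 0.79), AT5G19890 (0.76 and 1.14), AT5G20820 (0.86 and 0.73), AT5G22920 (0.89 and 0.52), AT3G15630 (0.62 and 0.39), AT3G47510 (0.59 and 0.50) and AT4G35750 (0.50 and 0.36).

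GSTF2 was higher in Sku6 in all 4 genotype tables, with log2 values of 0.54 and 0.64 in flight and 0.71 and 0.51 on the ground, and DI21 was higher at 4 days both in flight (0.56) and on the ground (0.43). AT5G38940 and EXT12 went the other way. On the ground, AT5G38940 was at 1.86 FPKM in 4-day Sku6 and 25.2 in 4-day Col-0, and at 5.76 and 32.1 at 8 days, by the authors' deposited tables. In flight at 8 days it was at 17.1 and 29.2. EXT12 was at 39.3 against 110.3 FPKM on the ground and 87.04 against 143 in flight at 4 days. ROXY2 and ACHT5 were lower in Sku6 on the ground at 8 days, at 5.63 against 15.7 and 25.5 against 34.8 FPKM. In 11 members, no age or genotype table listed the locus, and the matching share of all loci was not counted.

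Gene lists chosen with earlier results of these data known were counted beside the members. Of all tested loci, 3.10%, 1.26%, 2.18% and 1.08% were called higher in flight and 4.11%, 2.80%, 2.28% and 1.43% lower, in the order of tables used above, and a list's counts are read beside those shares. The only members in them were EXO (other dark and low-energy genes), BZO2H3 (bZIP factors of groups S1 and C), AT1G19530 (hypoxia) and PEPC1 (phosphate starvation). Of 32 hypoxia genes, 2 were higher and 4 lower in Col-0 at 4 days, 0 and 9 in Col-0 at 8 days, 4 and 1 in Sku6 at 4 days and 7 and 0 in Sku6 at 8 days. The median ratios of the listed hypoxia genes were −0.46, −0.68, 1.30 and 0.93, beside −0.46, −0.41, −0.42 and −0.42 over all loci called in those tables, and whether the genotypes differ was not tested. Of 19 phosphate starvation genes, 2 were higher and 2 lower, 5 and 2, 1 and 1, and 1 and 0 in the same order. Breakdown of amino acids at low energy had 4 of 18 genes higher in Sku6 at 4 days and none listed in the other 3 tables. Of 12 other dark and low-energy genes, 1, 1, 2 and 0 were higher and 1, 0, 0 and 1 lower. Of 8 bZIP genes, BZO2H3 alone was listed. Of 17 trehalose phosphate genes, 0 were higher and 3 lower, 0 and 1, 1 and 3, and 0 and 1. Among 9 ATG8 genes of autophagy, 1 was higher in Sku6 at 4 days, and of 3 touch genes, 1 was higher and 0 lower, 0 and 1, 1 and 0, and 0 and 1.

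Markers of other tissue were counted with the members because roots were cut from whole seedlings. Of 10 root markers, WOX5 was higher in flight in 4-day Col-0 (25.7 against 15.4 FPKM) and SCR in 8-day Col-0 (14.05 against 10.7), and none was listed in Sku6. Of 17 shoot markers, 2 were lower in flight in 4-day Col-0, 8 in 8-day Col-0, and 3 were higher and 1 lower in 4-day Sku6, with none listed in 8-day Sku6. Over all tested loci, 4.11%, 2.80% and 2.28% were called lower in the first 3 of these tables and 2.18% higher in 4-day Sku6. The summed level of the listed shoot markers was 267 FPKM on the ground and 207 in flight in 4-day Col-0, 686 and 394 in 8-day Col-0, and 82.3 and 152 in 4-day Sku6. Of the shoot markers listed in the flight-to-ground tables, none was at 0 in a group, and none of 9 seed storage markers was in any table. The part of shoot tissue in the members' values was not tested.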

How the data were processed

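Root RNA of 32 samples, 4 in each of 8 groups, was sequenced after SMART-Seq v4 amplification of 10 ng of RNA and Nextera tagmentation, per the labels' protocols. Per the submitters' processing notes, the build was TAIR10 and Cuffdiff, Cufflinks, Picard, STAR 2.5.1b, FastQC 0.11.2 and Trimmomatic 0.36 were used, in an order and with settings not given in the sources used. Per the file headers, each of 12 deposited tables compares a pair of groups and gives FPKM levels, the log2 fold change, a test statistic (a score, not used), and the p-value and q-value of the test. Amplification from little RNA and the scaling to length and library size, both done by the authors before deposit, can shift FPKM of low or short transcripts. All replicates of a group are pooled into 1 deposited value, so no spread, depth or test across samples could be had. No column of per-sample values was used.

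Directions were set to flight over ground, 8 over 4 days and Sku6 over Col-0. Loci were taken as called at the authors' q-value limit of 0.05. The number of loci tested came from the rank of each p-value and its q-value. Values of 1 group in several tables differed by a factor of up to 1.04. Members were the loci in at least 3 of 4 flight-to-ground tables, higher in each, without 13 loci named in the rule. The members and all gene lists were chosen with earlier results of these data known.

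Genes named in the text were all members in 4 tables, of those in 3 tables the 8 with the highest and 4 with the lowest median log2 and the 1 with the highest flight FPKM, members in a list, members called the same way in at least 2 genotype tables and members in all 4 age tables. Outside the rule for members, up to 5 loci lower in 1 table and 3 loci in 2 tables were named. Other members are named to complete their role group. Roles were assigned by hand.

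Coordinates are those of the files (TAIR10, with 1 added to starts counted from 0). All fell within the chromosome lengths of TAIR10.1, whose nuclear sequence was used for promoters, and 79 of 79 annotated first genes overlapped their locus. Promoter windows of 300 bases were read from that genome by its annotation, since a promoter table planned for the step was not used. Motifs were searched on both strands. The steps were tested on simulated data with known answers. Python 3.11.15, pandas 2.3.3, numpy 2.4.6 and matplotlib 3.10.9 were used.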

Additional observations from a re-analysis of the deposited data

How the results depend on the processing

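No paired analysis was possible because the deposited tables hold 1 value per group, and for the same reason no replicate could be left out. The count of 80 loci became 17 when a listing in all 4 tables was required, 49 with a q-value of at most 0.01 and 26 with a log2 of at least 1 in every listing counted. It was 74 without merged loci, 64 with a log2 of at least 0.5, 75 with at least 5 FPKM in flight or ground and 85 with the loci the rule leaves out. The median log2 of the members moved by less than a factor of 1.5 in all 12 repeats, between 0.74 and 1.20. Its direction is set by the rule and could not change in these repeats. Of 173 repeats of single ratios of named members, 171 moved by less than that factor, and PEPC1 in 4-day Sku6 (2.47) and BHLH100 in 8-day Col-0 (1.18) moved by more with 1 FPKM added. With an absolute log2 of at least 1, the members lower at 8 days were 11 in flight Col-0, 14 in flight Sku6, 2 in ground Col-0 and 2 in ground Sku6, and those higher were 0, 2, 6 and 5. With the same limit, the members higher in Sku6 were 4 and 2 in flight and 0 and 0 on the ground at 4 and 8 days, and those lower were 0 and 0 in flight and 3 and 2 on the ground. With a q-value of at most 0.01, those higher at 8 days in flight were 1 in Col-0 and 3 in Sku6, and those higher in Sku6 on the ground at 4 days were 2. The shares of all tested loci at these stricter limits were not computed, so nothing is read from these counts. Windows of 500 bases and windows clear of other genes were chosen after seeing the data. TTGACC in 500 bases, at 21.1% of members, moved by more than a factor of 1.5. It was in 20.7% of all windows of that length. The unknown depth and spread limit every value here.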
